A study of Saccharomyces cerevisiae with 6 samples.

Results

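The genes described here build the nuclear pore complex of the budding yeast Saccharomyces cerevisiae, carry cargo through it and run the Ran cycle that gives the transport its direction. They are the probe sets whose annotated symbol is NUP followed by a digit (20 genes) or stands in a list of 32 named nucleoporins, karyopherins and Ran cycle genes. All 52 were found among the 5449 genes named on the array. PRP20 was matched through a synonym, because the annotation lists it as SRM1. Each had 1 probe set, and none of these is of the type that can bind several transcripts.

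The study measured messenger RNA with one-colour Affymetrix arrays in a strain whose histone H4 has arginine 45 replaced by histidine, here called H4R45H, and in the strain WY139 with wild-type H4. There are 3 arrays per strain. Both strains were grown in YPD, a rich glucose medium, and harvested in mid-log phase. The question was how this single change in the core domain of H4 affects the expression profile. Further alleles, the mating type, which H4 gene carries the change, and whether the mutant strain is a single clone are not given in the sources used here. R45H belongs to the Sin class of histone mutations, which lessen the need for the SWI/SNF remodelling complex at some promoters.

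The nuclear pore complex is an assembly of nucleoporins set in the nuclear envelope. An inner ring and an outer ring form its scaffold, membrane nucleoporins anchor it, and FG nucleoporins, named for their repeats of phenylalanine and glycine, fill the channel and bind transport receptors. The receptors are karyopherins, which are importins or exportins according to the direction in which they carry their cargo. Ran, a small GTPase, loads and unloads them: its exchange factor sits in the nucleus and its GTPase activator in the cytoplasm.

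Values are the signals of the arrays on a linear scale, and differences are on the log2 scale, H4R45H minus wild type. A gene was called, and is said to have risen or fallen, at an adjusted p under 0.05 in limma's moderated test (Benjamini-Hochberg, 5716 probe sets). Signals of different probe sets were not set against each other, since probes differ in brightness. The arrays' median signal was 148 to 151 in wild type and 159 to 163 in H4R45H, and log2 signals correlated across probe sets at 0.935 to 0.958 between strains and at 0.99 or more within a strain. The probe set of HHF1, a histone H4 gene, had a signal of 1197 ± 30.8 in wild type and 1173 ± 96.1 in H4R45H (SD, n = 3). It was not called as deposited (adjusted p = 0.64) or after quantile normalization (log2 difference 0.12, adjusted p = 0.07). No other H4 gene is described here. Whether the 3 arrays of a strain stand for separate cultures is not stated, so the p-values cover the array-to-array spread alone, technical spread included. The number of arrays limits the precision.

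Transcripts of the nuclear transport machinery were mostly lower in H4R45H. Of the 52 genes 37 fell, which is 71.2% against 29.1% of all genes, and 2 rose, the Ran gene GSP2 and the membrane nucleoporin gene POM33, against 37.1% of all genes. The other 13 were not called, beside a background of 66.2% called in either direction. The falls were small, between 1.10-fold and 1.64-fold, with a median log2 difference over the 52 genes of -0.29, against 0.05 for all genes. With a minimum of 1.5-fold only KAP122, NUP53 and NUP84 counted as lower (all genes 4.29%) and only GSP2 as higher (all genes 18.0%). Each array's values are relative to its own scale, so less of a transcript per cell cannot be told apart from more of the other transcripts.

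For 39 genes, 75% of the 52, called or not, every H4R45H array lay below every wild-type array, against 31.6% of all genes, and the 2 higher ones lay wholly above, against 39.8% of all genes. The 39 are 36 of the 37 called lower, without MLP2, and 3 that were not called, NUP49, NUP1 and NUP133. The background varied with brightness. In the middle 50% of the members' signal range, from 175 to 353, there were 1247 genes, of which 39.0% fell and 28.7% rose. Of the 26 members in that range 17 fell, which is 65.4%. Of the 52 genes 28 fell under all of 4 scalings (53.8%, against 22.3% of all genes) and the same 2 rose (all genes 22.9%). The scalings are as deposited, quantile, median centring and cyclic loess. Median centring lowers every log2 difference by the same amount, so it cannot turn a fall into a rise. Of the 1247 genes in the middle signal range, 530 lay lower without overlap and 405 fell under all 4 scalings. Their median log2 difference was -0.08. The part of brightness in these counts was not tested.

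**Figure D1:**
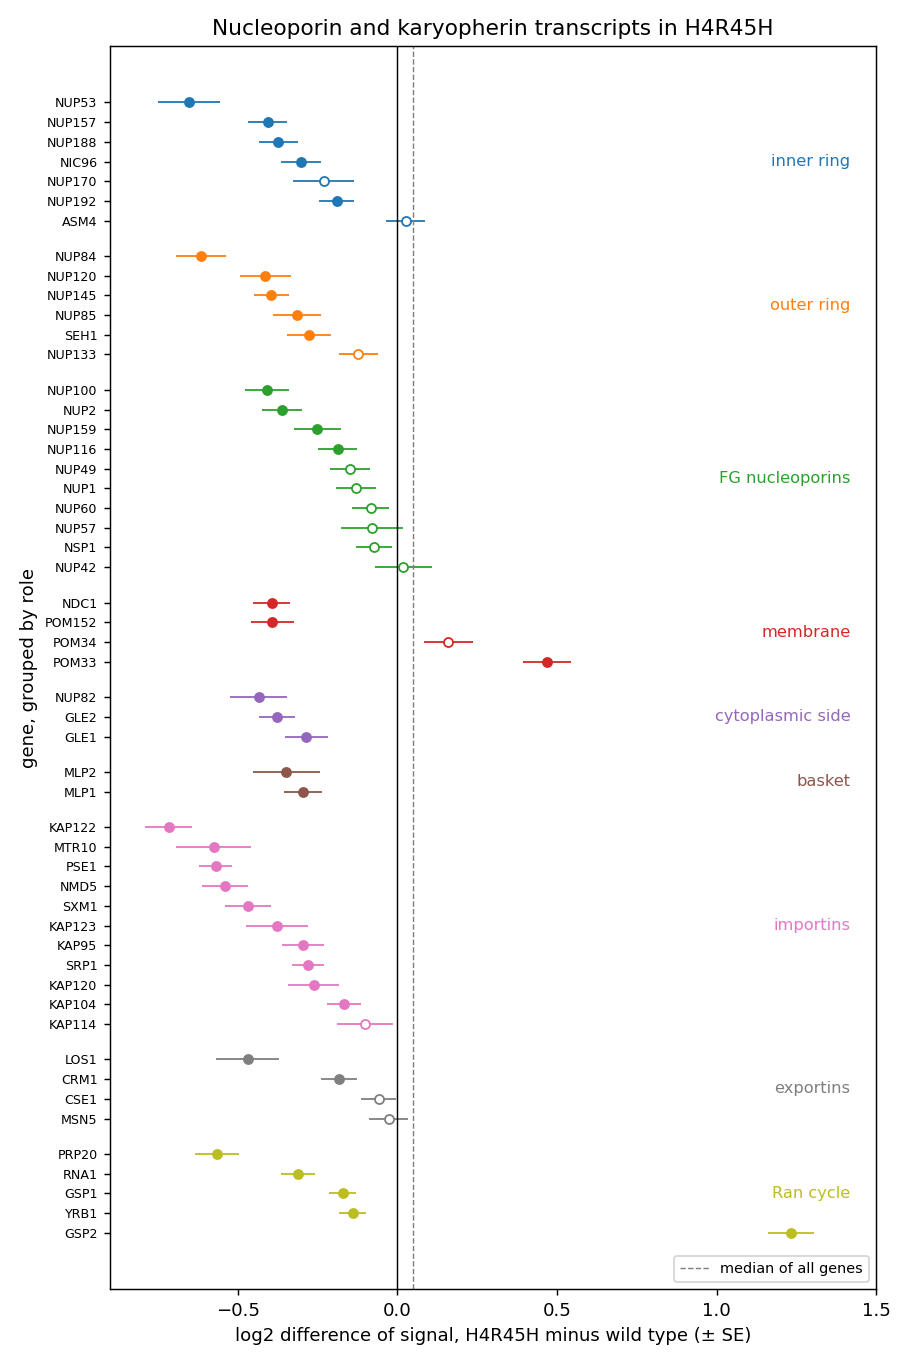
Log2 difference of signal, H4R45H minus wild type (horizontal axis), for each of the 52 genes, grouped and coloured by role. Filled points were called and open points were not, bars are the standard error, n = 3 arrays per strain, and the dashed line is the median of all genes. Most points lie left of 0 and GSP2 and POM33 are the filled points on the right.

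**Figure D2:**
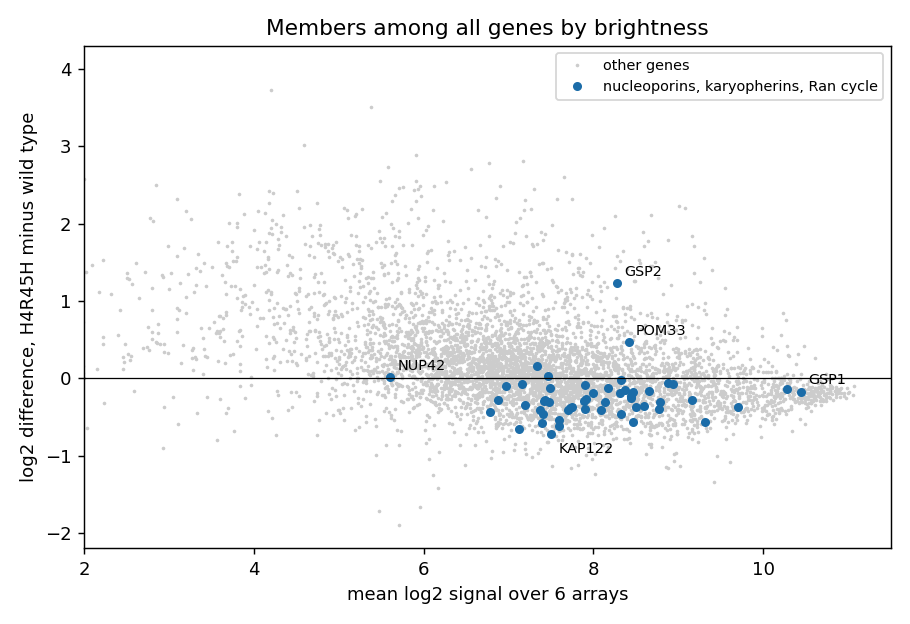
Log2 difference (vertical axis) against the mean log2 signal over the 6 arrays (horizontal axis) for all named genes in grey and for the 52 genes in blue; genes beyond the axis limits are not drawn. Dim genes spread upwards, and 47 of the 52 members have a fitted difference below 0.

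The scaffold fell in 10 of 13 genes, with a median of -0.31. Among all genes 29.1% fell, and in the members' middle signal range 39.0%. In the inner ring, which holds the channel together at its waist, 5 of 7 fell. NUP53 (YMR153W), an inner ring protein that also binds the importin Pse1, gave 176, 168 and 181 in wild type and 124, 117 and 94.6 in H4R45H. All its H4R45H values lay below all wild-type values, a 1.57-fold fall (log2 difference -0.65, SE 0.0971, adjusted p = 1.8e-04). NUP157, a large building block of the same ring, gave 318, 326 and 297 in wild type and 243, 239.5 and 228 in H4R45H, without overlap (log2 difference -0.41). NUP188 (-0.37), NIC96 (-0.30) and NUP192 (-0.19), scaffold proteins of the ring too, fell, and NUP192 lost its call after cyclic loess normalization (adjusted p = 0.096). NUP170, the paralog of NUP157, gave 384, 347 and 400.4 in wild type and 344, 349.9 and 274 in H4R45H. Its strains overlapped, and it was not called (log2 difference -0.23, adjusted p = 0.052). ASM4, which encodes the NUP53 paralog Nup59, gave 169, 182 and 174 in wild type and 179.7, 183 and 172 in H4R45H, with the strains intermingled (log2 difference 0.03, adjusted p = 0.73). Without wild-type replicate 2, H4R45H replicate 1 or H4R45H replicate 2, and after median centring, NUP170 was called lower (adjusted p = 0.0065 to 0.037).

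In the outer ring, built from Y-shaped complexes that coat the membrane, 5 of 6 genes fell, beside 29.1% of all genes. NUP84 (YDL116W), the gene after which that complex was first named, gave 244, 230.3 and 243 in wild type and 165, 165 and 139.6 in H4R45H. The strains did not overlap, and the fall was 1.53-fold (log2 difference -0.61, SE 0.0773, adjusted p = 5.6e-05). NUP120 (-0.41), NUP145 (-0.39), NUP85 (-0.31) and SEH1 (-0.28) fell as well, all of them under each scaling. Under all 4 scalings 22.3% of all genes fell. NUP145 encodes a precursor that cuts itself into an FG part and an outer ring part, so its transcript serves both classes. NUP133 had -0.12 and was not called (adjusted p = 0.098), though its 3 H4R45H values lay below its 3 wild-type values, and it was called without H4R45H replicate 1 (adjusted p = 0.046) and after median centring (adjusted p = 0.0051).

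FG nucleoporins fell in 4 of 10 genes, with a median of -0.14, closer to 0 than that of the scaffold. That count is near the 39.0% of all genes that fell in the members' middle signal range. The difference between the classes was not tested, and NUP145 (-0.39), which serves both, was counted in the scaffold alone. After median centring 8 of the 10 were lower, while the share of all genes called lower rose to 38.6%, or 51.7% in that signal range. NUP100, which carries repeats of the GLFG type, gave 243, 244 and 229 in wild type and 194, 178 and 168 in H4R45H, with no overlap (log2 difference -0.41, SE 0.0694, adjusted p = 4.5e-04). Its paralog NUP116 gave 269, 286 and 264 in wild type and 237, 251 and 232 in H4R45H, also without overlap but closer together (log2 difference -0.19). NUP2, a mobile FG nucleoporin of the nuclear side, fell by 0.36 and NUP159 of the cytoplasmic side by 0.25 on the log2 scale. NUP159 and NUP116 lost their calls after cyclic loess normalization (adjusted p = 0.069 and 0.095), and NUP116 also without wild-type replicate 2 (adjusted p = 0.095).

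The 3 genes of the central channel complex were not called as deposited. NSP1 had a log2 difference of -0.07 (adjusted p = 0.26), NUP49 one of -0.15 (adjusted p = 0.061) and NUP57 one of -0.08 (adjusted p = 0.49). As deposited, the 95% interval of NSP1 ran from -0.20 to 0.05, so a fall as large as that of NUP100 lies outside it. NUP1 (-0.13) and NUP60 (-0.08), FG nucleoporins of the nuclear side, were not called either. After median centring NSP1 (-0.18, adjusted p = 0.015), NUP49 (-0.25, adjusted p = 0.0052), NUP1 (-0.23, adjusted p = 0.0091) and NUP60 (-0.19, adjusted p = 0.014) were called lower. Leaving out wild-type replicate 2 gave a call for NUP49 (adjusted p = 0.038), and NUP1 was called if wild-type replicate 3 was left out (adjusted p = 0.048) or after quantile normalization (adjusted p = 0.026). NUP42, an FG nucleoporin of the cytoplasmic side that works with GLE1 in mRNA export, was the dimmest of the 52 and lay alone in the dimmest 25% of probe sets, with 48.8, 49.7 and 46.4 in wild type and 51.2, 51 and 44.8 in H4R45H. Its difference of 0.02 as deposited became -0.49 after quantile normalization (adjusted p = 0.0015) and -0.40 under cyclic loess (adjusted p = 0.0038), so no direction is given for it.

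Of 4 membrane nucleoporin genes 2 fell and 1 rose. Among all genes 29.1% fell and 37.1% rose, and in the members' middle signal range 39.0% and 28.7%. NDC1, which is shared with the spindle pole body, fell from 275 ± 11.2 to 209 ± 1.6 (n = 3, mean ± SD; log2 difference -0.39, SE 0.0585, adjusted p = 1.8e-04), and POM152 fell too (-0.39). POM33 (YLL023C) rose. It gave 291, 305 and 275 in wild type and 374, 387 and 448 in H4R45H, with no overlap between strains (1.39-fold, log2 difference 0.47, SE 0.0754, adjusted p = 3.0e-04). POM34, a partner of POM152, had 0.16 and was not called (adjusted p = 0.09), except without wild-type replicate 3 (0.21, adjusted p = 0.049). The intervals of NDC1 (-0.52 to -0.26) and POM33 (0.30 to 0.64) lie on opposite sides of 0.

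On the cytoplasmic side and in the nuclear basket 5 of 5 genes fell, also under each scaling. Of all genes 29.1% fell as deposited and 22.3% under all 4 scalings. NUP82, which anchors the export platform, had -0.43. GLE2, an mRNA export factor bound to NUP116, gave 248, 243 and 243 in wild type and 188, 188 and 189.7 in H4R45H, a 1.30-fold fall with little spread (log2 difference -0.38, SE 0.0558, adjusted p = 1.8e-04). GLE1, the activator of the export helicase Dbp5, had -0.29. In the basket, the filament protein gene MLP1 gave 188, 194 and 186 in wild type and 149.7, 158 and 155 in H4R45H, without overlap (log2 difference -0.30). MLP2, its paralog, gave 144, 179 and 175 in wild type and 146, 130.5 and 115 in H4R45H, and H4R45H replicate 1 lay above wild-type replicate 1 (log2 difference -0.35). The MLP2 call was lost without wild-type replicate 2 or 3 (adjusted p = 0.055 and 0.054).

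Importins fell in 10 of 11 genes, with a median of -0.38, beside 29.1% of all genes and 39.0% in the members' middle signal range. All 11 were lower after quantile normalization and median centring, and 7 after cyclic loess normalization, where the median was -0.25. Of all genes 36.8%, 38.6% and 30.4% were lower under these 3 scalings. KAP122 (YGL016W), known as an importer of the transcription factor TFIIA, had the largest fall of the 52, with 232, 229.8 and 236 in wild type and 156, 140.0 and 129.8 in H4R45H. Every H4R45H value was lower than every wild-type value (1.64-fold, log2 difference -0.72, SE 0.075, adjusted p = 1.5e-05). Only 1.82% of all genes had a lower log2 difference. MTR10 (YOR160W), importer of the RNA-binding protein Npl3, gave 224, 234 and 165 in wild type and 139, 129 and 145 in H4R45H. Its wild-type replicate 3 was lower than the other two but above all H4R45H values (1.49-fold, log2 difference -0.58, SE 0.118, adjusted p = 0.0015).

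PSE1 (YMR308C), also known as KAP121, imports ribosomal proteins and transcription factors and gave 778, 773 and 774 in wild type and 541, 534 and 493 in H4R45H. This was the most narrowly measured of the larger falls (1.48-fold, log2 difference -0.57, SE 0.052, adjusted p = 6.1e-06). NMD5 (YJR132W), an importer of the elongation factor TFIIS, gave 243, 226 and 232 in wild type and 172, 165 and 147 in H4R45H, again without overlap (1.45-fold, log2 difference -0.54, SE 0.0729, adjusted p = 9.2e-05). SXM1 (-0.47), the classical importin beta KAP95 (-0.30) and its adaptor, importin alpha SRP1 (-0.28), fell under each scaling. KAP123 (-0.38), a main importer of ribosomal proteins, KAP120 (-0.26) and KAP104 (-0.17), importer of the mRNA-binding proteins Nab2 and Hrp1, fell as deposited and lost their calls after cyclic loess normalization (adjusted p = 0.055, 0.053 and 0.30). KAP120 was also lost without wild-type replicate 2 or H4R45H replicate 2 (adjusted p = 0.053 for each). KAP104 was lost without wild-type replicate 1 or 2 or H4R45H replicate 2 (adjusted p = 0.056 to 0.084). KAP114, importer of histones H2A and H2B and of the TATA-binding protein, had -0.10 and was not called as deposited (adjusted p = 0.33), but was lower after quantile normalization (-0.25, adjusted p = 0.021) and median centring (-0.20, adjusted p = 0.049).

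Exportins fell in 2 of 4 genes, with a median of -0.12, beside 29.1% lower among all genes and 39.0% in the members' middle signal range. LOS1 (YKL205W), the tRNA exporter, gave 209.9, 183 and 206 in wild type and 155, 156 and 123 in H4R45H. The strains did not overlap (1.38-fold, log2 difference -0.47, SE 0.0989, adjusted p = 0.0018). CRM1, the exporter of proteins with a leucine-rich signal, fell by less (-0.18), and its call was lost after cyclic loess normalization (adjusted p = 0.16) and without wild-type replicate 1 (adjusted p = 0.061). CSE1, which returns importin alpha to the cytoplasm, had -0.06 (adjusted p = 0.36), though it was called lower after median centring (-0.16, adjusted p = 0.02). For MSN5, an exporter of phosphorylated proteins, the difference was -0.03 (adjusted p = 0.71). Importins and exportins together make up 15 transport receptors, of which 12 fell as deposited and 8 after cyclic loess normalization. The shares of all genes that fell were 29.1% and 30.4%.

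**Figure D3:**
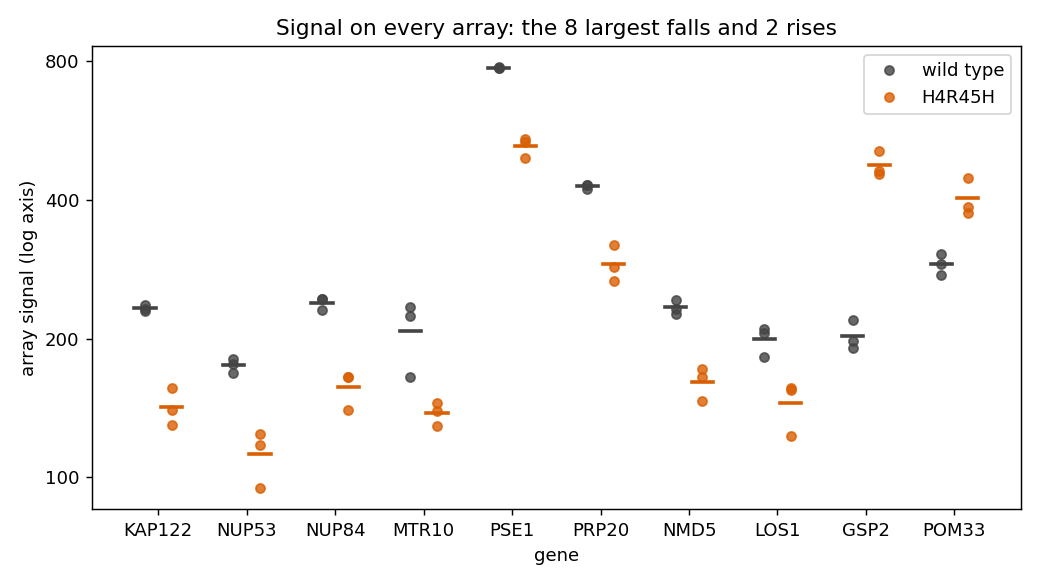
Signal on every array (vertical log axis) for the 8 largest falls and the 2 rises among the 52 genes, with wild type in grey and H4R45H in orange; points are single arrays and bars are means. In each of these genes, chosen from these same arrays by call and size, the 3 arrays of one strain lie wholly above the 3 of the other.

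In the Ran cycle 4 of 5 genes fell as deposited, 2 of them also after quantile and cyclic loess normalization, and GSP2 rose. Of all genes 29.1% fell as deposited, 36.8% after quantile and 30.4% after cyclic loess normalization. PRP20 (YGL097W), the exchange factor that loads Ran with GTP in the nucleus, gave 432, 423 and 432 in wild type and 319, 286 and 267 in H4R45H. It fell 1.48-fold with no overlap (log2 difference -0.57, SE 0.0691, adjusted p = 4.6e-05). RNA1, the GTPase activator of the cytoplasm, fell from 490.2 ± 12.9 to 395 ± 15.9 (n = 3, mean ± SD; log2 difference -0.31, SE 0.0544, adjusted p = 5.4e-04).

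GSP1 (YLR293C), the main Ran gene, gave 1477, 1509 and 1440.2 in wild type and 1277, 1334 and 1319 in H4R45H, a small fall (log2 difference -0.17, SE 0.0411, adjusted p = 0.0038). YRB1, the Ran-binding protein that helps RNA1, fell by as little (-0.14). Both are bright, and after quantile normalization their differences were 0.0051 and 0.010 and not called, so no direction that holds over the scalings can be given for them. GSP2 (YOR185C), the second Ran gene, which is not essential, gave 219.8, 198 and 191 in wild type and 462, 456 and 511 in H4R45H. The H4R45H values were all more than any wild-type value (2.35-fold, log2 difference 1.23, SE 0.0722, adjusted p = 2.9e-07), and the log2 difference was 1.25 after quantile normalization and 1.31 after cyclic loess normalization. Of all genes 93.5% had a lower log2 difference. The coding sequences of GSP1 and GSP2 are closely alike, so part of either signal may come from the other transcript, and this was not tested.

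Paralog pairs were compared through the log2 ratio of their signals within each array, with exact two-sided permutation tests over the 6 arrays and adjustment over the 5 pairs. The ratio itself depends on the probes, and only its change between strains is read. With 3 arrays against 3 no p under 0.1 can be reached. The GSP1 to GSP2 ratio was 2.75, 2.93 and 2.92 in wild type and 1.47, 1.55 and 1.37 in H4R45H, without overlap (difference -1.40, SE 0.0792, exact p = 0.1, adjusted p = 0.17). For NUP53 to ASM4 the ratio was 0.06, -0.11 and 0.05 in wild type and -0.53, -0.64 and -0.86 in H4R45H, again without overlap (difference -0.68, SE 0.111, exact p = 0.1, adjusted p = 0.17). NUP100 to NUP116 had -0.15, -0.23 and -0.21 in wild type and -0.29, -0.49 and -0.46 in H4R45H, the third pair without overlap (difference -0.22, SE 0.068, exact p = 0.1, adjusted p = 0.17). The ratios overlapped for NUP157 to NUP170 (difference -0.18, SE 0.132, exact p = 0.3, adjusted p = 0.38) and for MLP1 to MLP2 (difference 0.05, SE 0.147, exact p = 0.9, adjusted p = 0.9).

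**Figure D4:**
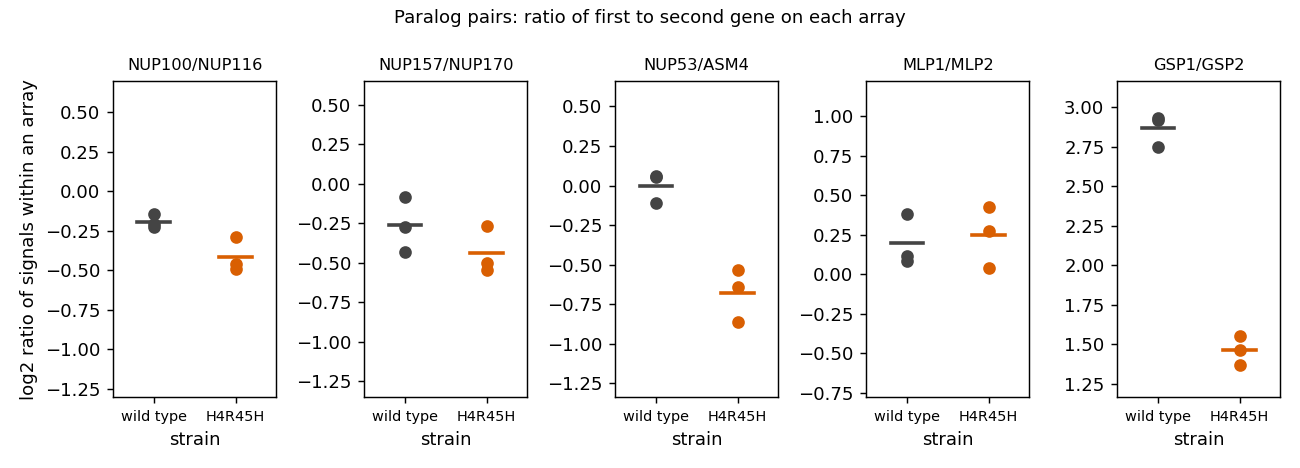
Log2 ratio of the first to the second gene of each of 5 paralog pairs on every array (vertical axis; each panel spans 2 units around its own centre), by strain, with points for arrays and bars for means. The strains separate for NUP100/NUP116, NUP53/ASM4 and GSP1/GSP2 and overlap for NUP157/NUP170 and MLP1/MLP2.

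Partner genes of the pore were read from 4 lists. In the list drawn up for export of ribosomal subunits and tRNA 8 of 9 genes fell, beside 29.1% of all genes. The median of the 9 was -0.66, lower than that of any role group of the 52. With a median signal of 408 the list lay above the members' middle signal range. Whether ribosome assembly genes outside the list fell alike was not tested. ALB1, a shuttling factor of the large subunit, fell from 548 ± 12.5 to 309 ± 70.6 (n = 3, mean ± SD; log2 difference -0.85, SE 0.13, adjusted p = 0.00022), with ECM1 (-0.84) and RRP12 (-0.71), which help export the subunits, next. The ALB1 values of H4R45H were widely spread, from 239 to 380.5, yet all lay below the lowest wild-type value of 534.

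For mRNA export 8 of 20 genes fell and 1 rose as deposited, with a median of -0.15. Among all genes 29.1% were lower and 37.1% higher, and in the members' middle signal range 39.0% and 28.7%. The lower count was 10 after quantile normalization, 15 after median centring and 9 after cyclic loess normalization, and 6 genes were lower under all 4 scalings. YRA2, an RNA-binding export factor, fell from 177 ± 8.26 to 112 ± 3.96 (n = 3, mean ± SD; log2 difference -0.66, SE 0.0668, adjusted p = 1.3e-05), and the export helicase gene DBP5 fell too (-0.36). HPR1, of the THO complex that couples transcription to export, rose from a dim signal (0.43) and was not called after quantile normalization (0.17, adjusted p = 0.078).

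Of 4 further Ran pathway genes 2 rose and 1 fell, beside 37.1% higher and 29.1% lower among all genes. MOG1, which binds Ran, rose from 141 ± 6.62 to 212 ± 5.82 (n = 3, mean ± SD; log2 difference 0.59, SE 0.0641, adjusted p = 2e-05), and YRB2, a Ran-binding cofactor of Crm1, rose as well (0.33). NTF2, which carries Ran into the nucleus, fell (-0.28), and the last of the 4, YRB30, was not called. Of 12 pore partners and assembly factors 2 fell as deposited (29.1% of all genes fell), against 7 after quantile normalization, 7 after median centring and 5 after cyclic loess normalization, where 36.8%, 38.6% and 30.4% of all genes were lower. Those 2, lower under all of these, were DYN2 (-0.43), a dynein light chain of the Nup82 complex, and SEC13 (-0.28), a coat protein shared with the outer ring. PML39 (0.36), a partner of the basket, and NUR1 (0.31), of the nuclear rim, rose, which is 2 of 12 beside 37.1% of all genes. NUR1 was not called after quantile normalization (0.15, adjusted p = 0.15) or median centring (adjusted p = 0.052).

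**Figure D5:**
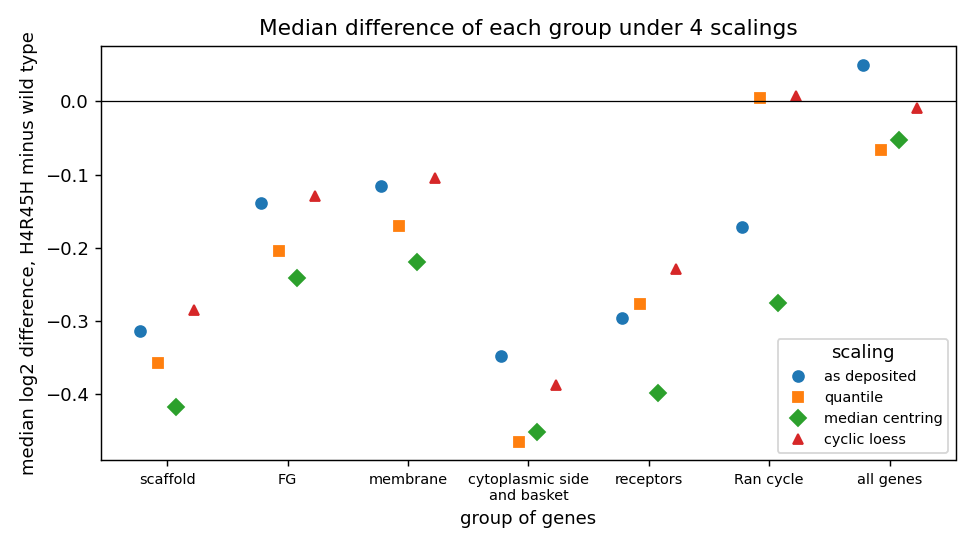
Median log2 difference, H4R45H minus wild type (vertical axis), for 6 classes of the 52 genes and for all genes, under 4 scalings shown by marker. The scaffold, receptor and cytoplasmic and basket classes stay below -0.2 under each scaling, and the Ran cycle moves from -0.17 as deposited to 0.01 after cyclic loess normalization.

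The class medians moved with the scaling by unequal amounts. For the scaffold the median was -0.31 as deposited, -0.36 after quantile normalization, -0.42 after median centring and -0.28 after cyclic loess normalization. For the receptors it was -0.30, -0.28, -0.40 and -0.23 in the same order. The median of all genes was 0.05, -0.07, -0.05 and -0.01. That of genes in the members' middle signal range was -0.08, -0.10, -0.19 and -0.03. Both classes lay below both medians under each of the 4 scalings. Median centring shifts all genes alike, so it could not change the gap to either.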

How the data were processed

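Total RNA of 3 wild-type and 3 H4R45H samples was measured on one-colour Affymetrix arrays. The authors deposited 1 intensity per probe set on a linear scale, and the submitters' processing notes name MAS5, with version, scaling target and detection calls not given in the sources used here. Groups and replicate numbers came from the titles. Gene names came from the platform's annotation by Entrez identifier, and 52 of 52 members have a RefSeq entry. No genome build is named, so no coordinates are given, and sequences were not used here.

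Signals were taken as log2 without further scaling. The 7 values at 0, in 3 probe sets and none in a member, were set to 0.1. limma 3.58.1 in R 4.3.3 (lmFit, eBayes with trend, two-sided) was fitted to all 5716 probe sets with Benjamini-Hochberg adjustment. Where a gene had several probe sets, the brightest by mean log2 signal was used. Lists were described by counts and medians, with no set test. The fit was tested on simulated data, with 50 probe sets changed at each size, far fewer than were called in the real data. It recovered 38% of log2 changes of 0.25, 72% of 0.5 and 98% of 1. A gene that was not called is therefore not shown to be unchanged. No pair of arrays shared more than 0.63% of its values.

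The members, role groups and partner lists were chosen with earlier results of these data known. Every member is named; the 8 largest falls, the 2 rises and the 5 paralog pairs are given array by array, and so are GLE2 and NUP42, chosen after their values were seen. From each partner list up to 3 called genes by size are named, and YRB30 and SEC13 were added to complete small counts. Alternatives were quantile normalization, median centring, cyclic loess normalization, adding 50 to each signal before log2, eBayes without the trend, dropping the dimmest 25% of probe sets or those that can bind several transcripts, the replicate block, each array left out in turn, averaging the probe sets of a gene and a minimum of 1.5-fold.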

Additional observations from a re-analysis of the deposited data

How the results depend on the processing

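Of 39 called members 29 kept sign and call under every alternative run on single genes (27 lower, 2 higher). Over all members and those alternatives, 730 of 779 results kept sign and side of the threshold, 16 lost the call, 17 gained one and 16 changed sign. The count of lower members was 37 as deposited, 29 after cyclic loess normalization, 38 after quantile normalization, 45 after median centring and 35 to 39 with 1 array left out; of all genes 29.1%, 30.4%, 36.8% and 38.6% were lower under these 4 scalings. A minimum of 1.5-fold left 3 lower and 1 higher member (2 scaffold, 0 FG and 0 membrane nucleoporins and 1 transport receptor lower), and 979 higher and 234 lower of all genes. After median centring 8 FG nucleoporins were lower, against 4, and without the dimmest 25% of probe sets, which tests fewer genes, 1232 genes were higher against 2022. Called differences that changed sign were those of GSP1 (0.0051 after quantile and 0.0077 after cyclic loess normalization) and YRB1 (0.010 and 0.033). Uncalled differences changed sign for NUP42 (-0.49 after quantile normalization, -0.085 after median centring, -0.40 after cyclic loess normalization, -0.014 to 0.082 with 1 array left out) and ASM4 (-0.041 after quantile normalization, -0.077 after median centring). They also did for NSP1 (0.043), CSE1 (0.056) and MSN5 (0.053) after cyclic loess normalization, and MSN5 ranged from -0.073 to 0.0013 with 1 array left out. The MLP1 to MLP2 difference, 0.05 with all arrays, lay between -0.038 and 0.16 with 1 array left out. The cause of these changes was not tested. Same-numbered arrays did not deviate together (correlations of -0.034 to 0.027), so the numbers are not known to pair them, and with the replicate block 37 members were lower and 2 higher, as without it. Of 12 members with a fitted difference within 0.15 of 0 on the log2 scale 1 was called. Signal over background could not be judged without detection calls.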
